A study of Arabidopsis thaliana with 8 samples.

Results

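The 4 floral organ identity genes AP2 (AT4G36920), AP3 (AT3G54340), PI (AT5G20240) and AG (AT4G18960) of Arabidopsis thaliana were examined for the nucleosomes listed over and around them. Each gene was taken with 3 kb before its annotated start and 1 kb past its end, and a listed nucleosome was counted when it overlapped that window. The genes were chosen by name, as 4 of 27444 protein-coding genes on the nuclear chromosomes. The rule used no measured value, but earlier results of these data were known when the choice was made. In micrococcal nuclease sequencing (MNase-seq), the nuclease digests DNA that histones do not protect, and the surviving fragments of nucleosome size are sequenced to place each nucleosome. The windows held 55 of 316733 listed nucleosomes after low digest and mock treatment, 56 of 242336 after low digest and dexamethasone (dex), 115 of 482098 after high digest and mock treatment, and 78 of 376240 in the list labelled high digest dex.

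The series addressed nucleosome positions around the nuclear entry of the transcription factor LEAFY (LFY). All 8 libraries came from Landsberg erecta plants that carry 35S:LFY-GR, the mock controls included. The 35S promoter drives LFY in most cells, and the GR part, a steroid receptor domain, holds the protein outside the nucleus until dex is given. Roots of 3-week-old plants spent up to 5 days on callus-inducing medium, received mock or dex solution for 1 h, and had their chromatin digested with a low or a high amount of MNase. There were 2 libraries for each of the 4 conditions. The labels name the tissue as callus, which nucleosome positions cannot check against marker genes. Each condition was represented by 1 pooled list, so that no spread between replicates was available, and differences between lists are given as values with no test. Inside the list labelled high digest dex, the name field is that of a library from low digest and dex, so values summed or averaged over the lists are also given without it. Values for the 4 lists follow in the order low digest mock, low digest dex, high digest mock and the list labelled high digest dex.

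In the ABC model of flower development, class A genes such as AP2 act in sepals and petals, the class B partners AP3 and PI act together in petals and stamens, and the class C gene AG acts in stamens and carpels. AP2 encodes an AP2-domain factor that keeps AG off in the outer organs and whose transcript is a target of miR172, whereas AP3, PI and AG encode MADS-domain factors that bind CArG boxes. LFY takes part in switching on AP3, PI and AG. The long second intron of AG holds regulatory DNA at which LFY and the homeodomain factor WUS are known to act.

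The 260 bp of the AG second intron at chr4:10386442-10386701 (TAIR10.1, plus strand) are shown because the stretch held 4 motif matches, printed in capitals, beside a pair of nucleosomes found in all 4 lists. It begins at the border of the left nucleosome and runs under the edge of the right one. From left to right the capitals mark a CArG box, a match to the LFY core CCANTGG, a match to its variant CCANTGT and a match to the WUS-type motif TTAATGG. The last 2 matches are separated by 1 base and do not overlap.
AG second intron stretch: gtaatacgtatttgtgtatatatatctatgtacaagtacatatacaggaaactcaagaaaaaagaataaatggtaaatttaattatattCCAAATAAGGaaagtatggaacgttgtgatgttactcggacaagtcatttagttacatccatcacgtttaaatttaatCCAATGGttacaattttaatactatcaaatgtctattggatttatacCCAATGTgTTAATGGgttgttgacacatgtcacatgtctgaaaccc

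The DNA under 3 low digest mock nucleosomes is shown with it. The PI interval (chr5:6830622-6830761, plus strand) had, with its counterparts, the highest signal rank of the PI window in 3 of the 4 lists, the AP3 interval (chr3:20121402-20121541, minus strand) was the nucleosome nearest upstream of the AP3 start in the low digest mock list, and the AP2 interval (chr4:17398752-17398891, plus strand) had the highest signal rank of the AP2 window in that list. Their GC contents were 42.1%, 40.7% and 44.3%, against 29.6% for the AG stretch and 36.0% for the nuclear genome. These intervals hold none of the 4 motifs.
PI exon nucleosome: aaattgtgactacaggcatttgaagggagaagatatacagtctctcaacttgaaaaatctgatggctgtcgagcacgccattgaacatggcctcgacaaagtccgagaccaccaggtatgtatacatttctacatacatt
AP3 promoter nucleosome: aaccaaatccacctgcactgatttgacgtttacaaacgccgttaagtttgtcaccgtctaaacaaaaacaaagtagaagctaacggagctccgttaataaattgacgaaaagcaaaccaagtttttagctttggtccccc
AP2 upstream nucleosome: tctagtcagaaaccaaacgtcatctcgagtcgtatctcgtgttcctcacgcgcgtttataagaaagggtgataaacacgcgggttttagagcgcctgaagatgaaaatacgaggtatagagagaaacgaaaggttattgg

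The lists themselves differed in length and coverage. Every listed nucleosome was an interval of 140 bp with an occupancy signal at its summit, and the intervals of the 4 lists covered 36.1%, 27.9%, 54.4% and 42.7% of the nuclear genome. No read numbers were in the lists. The depth behind a nucleosome is thus unknown, and list length and sequencing depth cannot be told apart. Signals were therefore read only as ranks, the percent of nucleosomes of the same list with a lower signal. In the low digest dex list 100% of signals were whole multiples of 8, so that many nucleosomes tied, and those with its commonest low signal of 64.0 had a rank of 3.78. Landsberg erecta reads had been placed on the Columbia reference, and the part of this in the empty stretches described here was not tested. The lists average over all cells of the explants, so that a nucleosome present in fewer cells and a nucleosome of lower occupancy in every cell cannot be told apart.

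Nucleosomes were listed more sparsely at AP2, PI and AG than at most genes, whereas AP3 had about the usual number or more. AP2 had 1.46, 1.46, 3.21 and 2.19 listed nucleosomes per kb in the 4 lists, and AG had 1.34, 1.03, 3.10 and 1.86. PI had 1.97, 2.12, 4.23 and 2.72 per kb. AP3 had 3.08, 3.56, 5.67 and 4.37 per kb. The medians over 27438 genes with a complete window were 3.09, 2.41, 4.75 and 3.67, so that AP2, PI and AG lay below the median in each of the 4 lists and AP3 lay above it in 3 of them and next to it in low digest mock.

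The order of the genes was similar when covered bases were used in place of numbers. Of the AG window 18.1%, 14.3%, 41.5% and 25.1% of bases lay inside a listed nucleosome, and of the AP2 window 20.1%, 20.4%, 43.9% and 30.0%. For PI the shares were 27.4%, 28.5%, 55.4% and 34.2%, and for AP3 41.1%, 46.8%, 71.0% and 56.5%. The median gene had 41.1%, 32.4%, 62.5% and 48.6%. AG was the lowest and AP3 the highest of the 4 genes in each list.

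**Figure D1:**
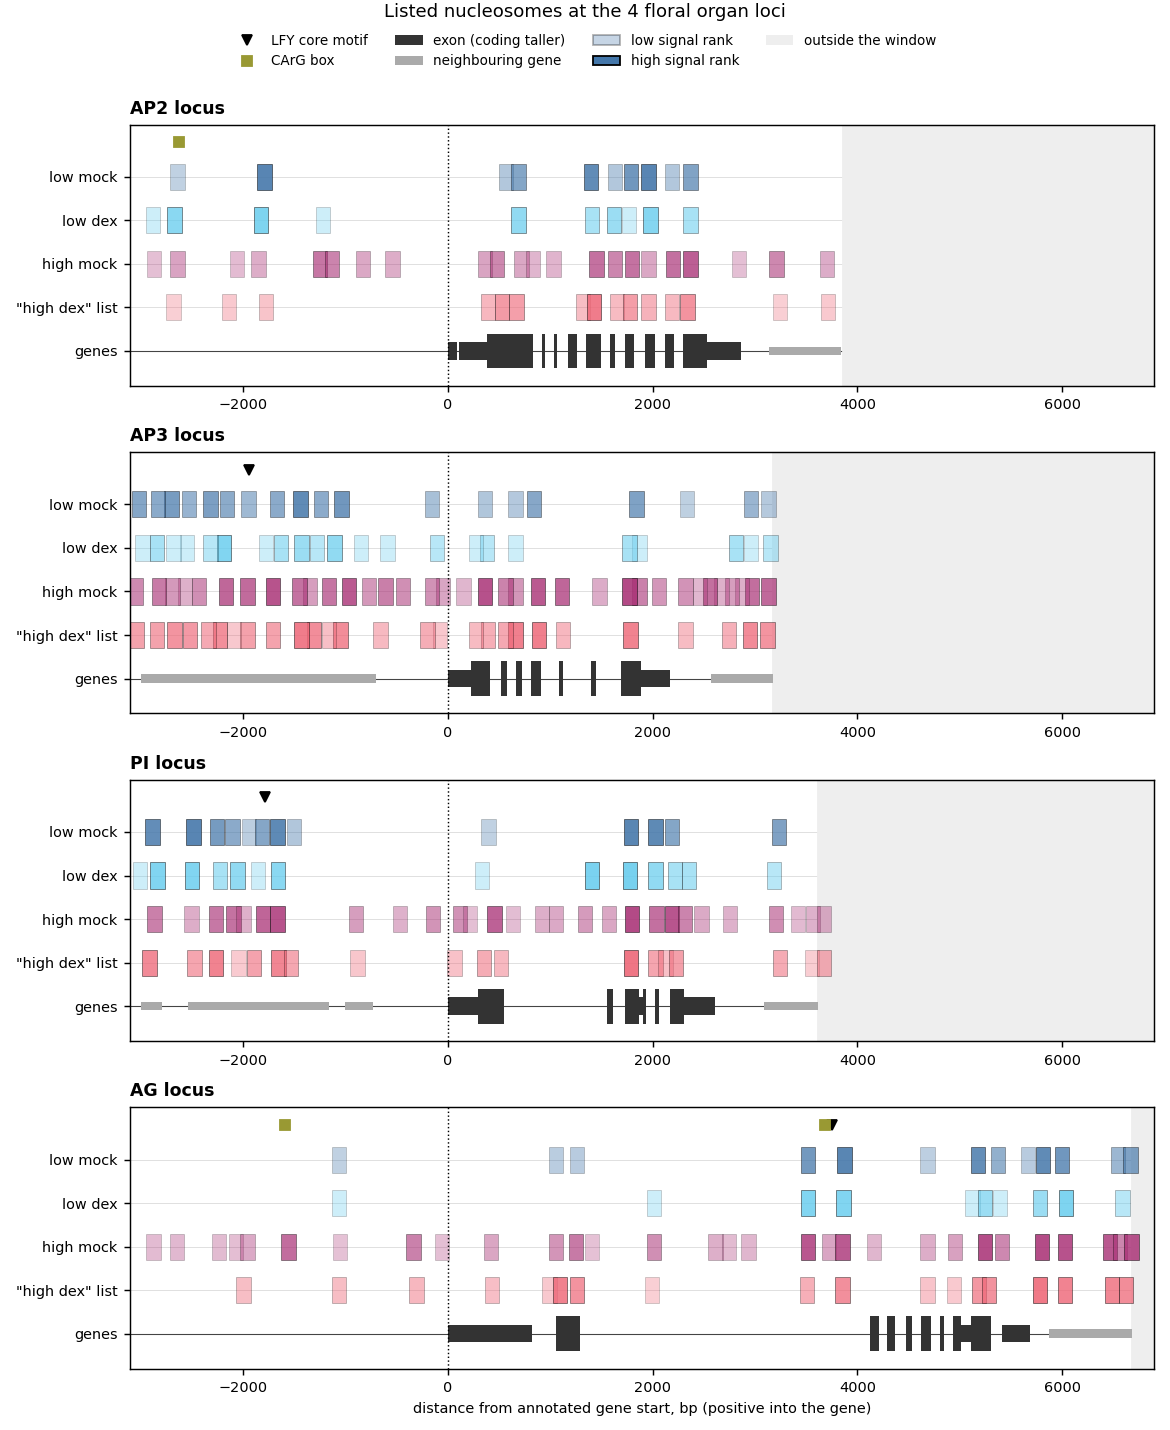
Each bar is a listed nucleosome of 140 bp, drawn at its distance in bp from the annotated start of AP2, AP3, PI or AG with 1 line per list, and a fuller colour means a higher signal rank in that list. Empty stretches run across the starts of AP2, PI and AG in both low digest lists, while the upstream part of AP3, which lies mostly inside a neighbouring gene, is filled in all 4 lists.

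AP2 (chr4:17400610-17403469, plus strand, 2860 bp) showed a wide stretch without listed nucleosomes around its start. In the 1 kb upstream, 0%, 0%, 28.0% and 0% of bases were covered, against medians of 28.0%, 26.6%, 52.3% and 32.0% over all genes. A coverage of 0% in that kb was also found for 13.2%, 15.4% and 10.6% of genes in low digest mock, low digest dex and the list labelled high digest dex. The longest empty stretches of the AP2 window measured 2220, 1770, 760 and 2025 bp and all crossed the start. No list held a nucleosome from -468 to 291 bp, where positions are counted from the annotated start and negative values lie upstream. The 2 nucleosomes of the kb in high digest mock, at -829 and -539 bp, had ranks of 20.9 and 16.6. The 3 kb upstream of AP2 hold no other gene, and 9.33%, 18.7%, 36.7% and 14.0% of their bases were covered. Upstream DNA between genes had medians of 19.0%, 18.7%, 42.1% and 22.9%, and 26.8%, 49.6%, 40.3% and 30.9% of genes had a lower share. By this measure AP2 was next to the median in low digest dex. In the other lists it was below the median but inside the interquartile range.

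Upstream of the empty stretch at the AP2 start, all 4 lists held a nucleosome at 2 places. The farther of these was centred at -2639, -2669, -2639 and -2679 bp. The AP2 upstream nucleosome printed above, centred at -1789 bp in low digest mock, had a rank of 99.1 there. Its counterparts were centred at -1824, -1849 and -1774 bp and had ranks of 90.5, 16.4 and 13.8. The position was thus among the highest signals in both low digest lists and among the lower ones in the other lists. Neither low digest list held a nucleosome in the 1 kb past the AP2 end, part of which is occupied by the gene AT4G36925, whereas high digest mock and the list labelled high digest dex held 33.2% and 28.0% there.

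The AP2 gene body was covered over 38.5%, 29.4%, 55.2% and 47.6% of its bases, below the all-gene medians of 50.7%, 37.8%, 70.9% and 59.5%. Its exons were covered over 42.6%, 32.5%, 56.6% and 51.0% and its introns over 28.9%, 22.2%, 51.9% and 39.5%, exons being higher in each list. The GC content of the AP2 introns was 21.6% and that of the exons 39.5%, and the part of base composition in this order was not tested. In the list labelled high digest dex the highest rank of the AP2 window was 92.6, for a nucleosome at 1431 bp, and in high digest mock it was 81.1, for one at 2371 bp.

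The nucleosome at 2371 bp lay over the target site of miR172, the microRNA that limits AP2 translation and transcript level. The site is in a coding exon at chr4:17403019-17403039 and is shown on the plus strand beside the mature miR172c as RefSeq places it in TAIR10.1 (chr3:3599791-3599811, minus strand), written in DNA letters with the seed, bases 2 to 8, in capitals. The AP2 site had 1 mismatch to the reverse complement of miR172c and miR172d, 2 to that of miR172a and miR172b, and 3 to that of miR172e.
AP2 target site: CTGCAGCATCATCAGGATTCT
miR172c: aGAATCTTgatgatgctgcag

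The 5 mature forms share this seed and form 1 group. A nucleosome at chr4:17402912-17403051 with the same borders in low digest mock, low digest dex and high digest mock covered all 21 bases of the site. It had ranks of 62.7, 45.0 and 81.1. In the list labelled high digest dex the nucleosome lay 30 bp further upstream, at chr4:17402882-17403021, had a rank of 67.6 and covered 3 of the 21 bases.

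AP3 (chr3:20119140-20121314, minus strand, 2175 bp) differed from the other genes in its upstream DNA. From -703 bp outwards the window lies inside the gene emb1967 (AT3G54350). That part was covered over 62.8%, 70.0%, 70.8% and 71.9% of its bases, where upstream DNA inside neighbouring genes had medians of 50.2%, 38.0%, 70.9% and 59.3% over all genes. The remaining upstream DNA, which lies between genes, was covered over 19.9%, 39.9%, 72.9% and 53.4%, against medians of 19.0%, 18.7%, 42.1% and 22.9%. Low digest mock alone was next to its median in this stretch, and the other 3 lists were above theirs.

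Within the 1 kb upstream of AP3, coverage was 17.3%, 42.0%, 75.0% and 42.3%. The nucleosome nearest the start in low digest mock, the AP3 promoter nucleosome printed above, was centred at -157 bp and had the same borders in high digest mock, with ranks of 26.8 and 38.6. In low digest dex it was centred at -107 bp, with a rank of 26.9. The list labelled high digest dex had a nucleosome to either side, at -77 and -197 bp, with ranks of 10.7 and 39.2. High digest mock also held a nucleosome across the AP3 start, at chr3:20121292-20121431, with a rank of 23.1.

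The AP3 gene body was below the all-gene median in each list, at 25.7%, 29.0%, 61.7% and 42.3%. The highest rank in the gene was that of a nucleosome in the last coding exon at 1773 bp in high digest mock, at 98.1. Its counterparts were listed at 1843, 1773 and 1783 bp with ranks of 63.4, 45.0 and 85.3 in the other lists. In low digest mock, low digest dex and the list labelled high digest dex the highest ranks of the AP3 window were instead those of nucleosomes inside emb1967, at -1437, -2187 and -1427 bp, with ranks of 92.1, 87.3 and 92.2. The longest empty stretches, of 860, 970, 230 and 520 bp, all lay inside the AP3 gene between 733 and 1772 bp from its start.

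PI (chr5:6828904-6831515, plus strand, 2612 bp), like AP2, had no listed nucleosome in its 1 kb upstream in the low digest lists. In that kb, 0%, 0%, 42.0% and 14.2% of bases were covered. The longest empty stretches were 1760 bp in low digest mock and 1855 bp in low digest dex, and both crossed the start. In high digest mock and the list labelled high digest dex they measured 630 and 1130 bp and lay elsewhere, from -1592 to -963 bp and from 588 to 1717 bp. The list labelled high digest dex had a nucleosome across the PI start, at chr5:6828902-6829041, whose border lay 2 bp before the start and whose rank was 16.9.

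Further upstream lies BCB (AT5G20230), a gene for a blue copper-binding protein, from -2539 to -1156 bp, and the window also touches AT5G20220, AT5G20225 and the noncoding gene AT5G03115. Inside these neighbouring genes 58.9%, 45.5%, 56.3% and 58.9% of bases were covered. Between the genes the shares were 1.14%, 5.00%, 27.5% and 0.439%. Coverage in the upstream DNA of PI thus lay almost wholly inside neighbouring genes in every list but high digest mock. The same medians over all genes were 50.2%, 38.0%, 70.9% and 59.3% inside neighbouring genes and 19.0%, 18.7%, 42.1% and 22.9% between genes.

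The nucleosome of the third PI exon had a high rank in every list. In low digest mock alone, a nucleosome centred inside BCB at -2483 bp had a higher rank, of 98.9. The interval printed above was centred at 1787 bp in low digest mock and had a rank of 98.4. It was centred at 1782, 1797 and 1787 bp in the other lists, with ranks of 98.6, 98.6 and 98.8. Its position moved by at most 15 bp between lists. The first PI intron of 997 bp, in contrast, was covered over 0%, 14.0%, 61.0% and 3.41% of its bases, and the medians over 1057 introns of at least 1 kb were 17.4%, 17.5%, 48.8% and 25.2%. In low digest dex the coverage of this intron came from a nucleosome at 1407 bp with a rank of 94.4. A nucleosome at 1337 bp overlapped it in high digest mock with a rank of 31.5, and neither low digest mock nor the list labelled high digest dex held a counterpart.

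AG (chr4:10382856-10388539, plus strand, 5684 bp) had few listed nucleosomes before its start in the low digest lists and in its gene body in all 4. The promoter, taken as the 1 kb upstream, was covered over 0.600%, 0.600%, 28.0% and 14.6% of its bases. Over the 3 kb upstream, which hold no other gene, the shares were 4.67%, 4.67%, 40.5% and 14.0%, against medians of 19.0%, 18.7%, 42.1% and 22.9% for upstream DNA between genes. Of all genes, 19.2%, 21.1%, 46.8% and 30.9% had a lower share there, so that AG in high digest mock was next to its median. For the 3 kb upstream with neighbouring genes included the medians were 36.0%, 28.2%, 58.4% and 42.6%. In both low digest lists a single nucleosome, at chr4:10381722-10381861 and centred at -1065 bp, was listed in these 3 kb, with ranks of 5.31 and 3.78. It was found in all 4 lists, within 10 bp, with ranks of 0.572 and 21.3 in high digest mock and the list labelled high digest dex. The AG upstream DNA was thus nearly free of listed nucleosomes in the low digest lists, and the nucleosome it held had a low signal.

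High digest mock held 9 nucleosomes centred in the 3 kb upstream of AG, and their ranks ran from 0.572 to 69.2. The highest of these ranks belonged to a nucleosome at -1555 bp that no other list held. A nucleosome across the AG start, at chr4:10382732-10382871, was listed in high digest mock with a rank of 1.47 and in no other list. The list labelled high digest dex shared with high digest mock a nucleosome before the start, at -305 and -335 bp respectively, with ranks of 28.1 and 52.8. The 580 bp from -984 to -405 bp were empty in all 4 lists.

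The rest of the AG gene without the second intron was covered over 27.7%, 14.9%, 35.8% and 37.1%. Its exons were covered over 25.3%, 14.5%, 39.2% and 34.4%, where the median gene had 58.3%, 42.0%, 74.2% and 65.9%. The lower coverage of AG was therefore not confined to its introns. In the 1 kb past the AG end, most of which lies in the gene AT4G18970 on the other strand, coverage was 54.0%, 42.0%, 56.8% and 54.8%, and the nucleosomes at 5815, 5782, 5805 and 5785 bp from the AG start had ranks of 91.6, 59.0, 96.5 and 96.4. In high digest mock and the list labelled high digest dex these were the highest ranks of the AG window, and in low digest dex the highest was 90.5, at 6035 bp.

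The long second intron of AG was treated apart from the promoter. It spans chr4:10384147-10387145 and 2999 bp in the gene model with the longest coding sequence, while other models of the 4 annotated place an exon start at 10386982. Its bases were covered over 10.8%, 14.0%, 42.5% and 15.5%, and introns of at least 1 kb had medians of 17.4%, 17.5%, 48.8% and 25.2%. The intron held the centres of 2, 3, 9 and 3 nucleosomes. It was thus below the median in each list but inside the interquartile range in each of them, since the lower quartiles were 7.68%, 7.39%, 30.4% and 12.1%. Its longest empty stretch in low digest mock measured 2110 bp.

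The coverage of the intron in the low digest lists came mainly from a pair of nucleosomes to either side of the CArG box and the LFY core match printed above. The left nucleosome, centred at 3515 bp from the AG start, had identical borders, chr4:10386302-10386441, in low digest mock, low digest dex and high digest mock, and lay 10 bp to the left in the list labelled high digest dex. Its ranks were 74.7, 87.3, 87.0 and 36.1. The right nucleosome was centred at 3875, 3865, 3855 and 3855 bp and had ranks of 98.2, 87.3, 84.5 and 71.5. In low digest mock the right nucleosome had the highest signal of the whole AG window.

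The motif matches of the stretch fell into 2 groups by coverage. The CArG box (chr4:10386531-10386540) and the LFY core match (chr4:10386609-10386615) lay between the nucleosomes and were covered in high digest mock but in none of the other lists. The nucleosome over them, at chr4:10386512-10386651, had a rank of 23.0. In the other lists the centre of the LFY core match lay 50, 40 and 30 bp from the nearest nucleosome border, in low digest mock, low digest dex and the list labelled high digest dex. The WUS-type match (chr4:10386664-10386670) was covered in all 4 lists, near the edge of the right nucleosome. The CCANTGT match beside it (chr4:10386656-10386662) was covered in 3 lists, and in low digest mock its centre lay 3 bp outside the border.

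**Figure D2:**
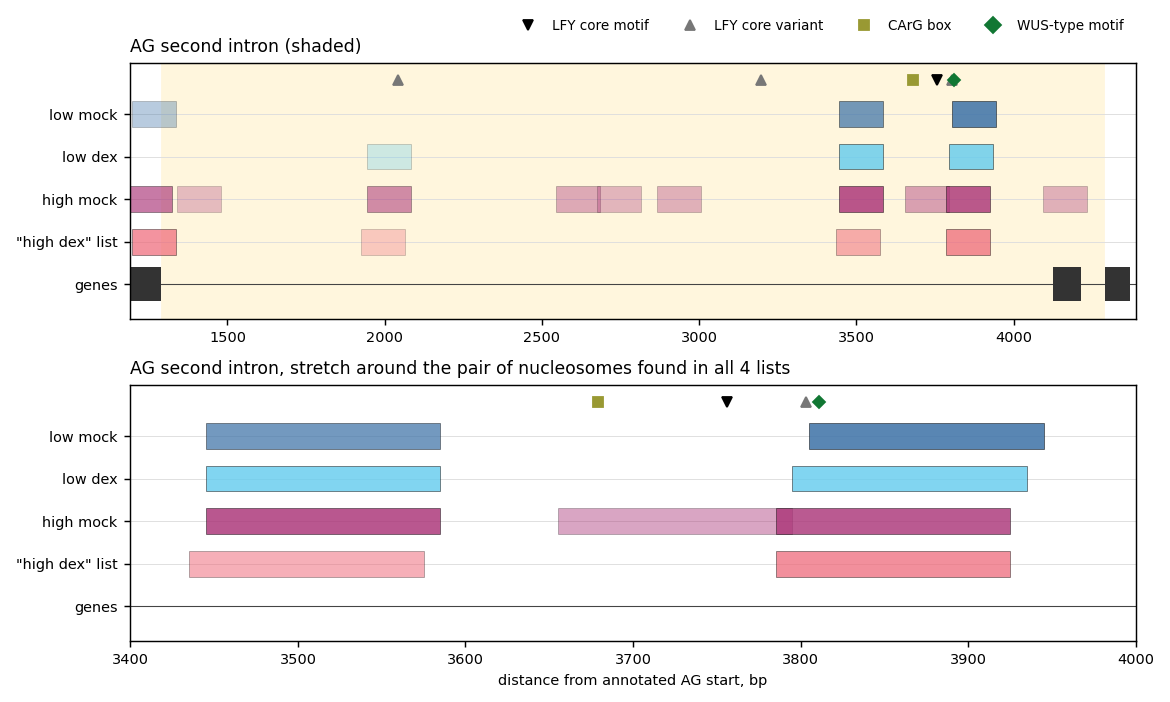
Listed nucleosomes in the AG second intron (upper panel, shaded) and around its shared pair (lower panel), as bars by list against distance in bp from the AG start, with motif matches as symbols on top. The LFY core motif and the CArG box sit in the space between the pair, which is filled in high digest mock alone, while the WUS-type motif sits under the right nucleosome in all 4 lists.

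A motif match describes the letters of the DNA and is no measure of binding. The LFY core CCANTGG, searched on both strands, occurred at 1 position in each of the AP3, PI and AG windows and at none in the AP2 window. Of all genes, 64.9%, 61.4%, 63.9% and 77.0% held it in a window as long as that of AP2, AP3, PI and AG. The AP3 match (chr3:20123248-20123254) lay inside emb1967 at -1937 bp and was covered in 3 lists, low digest dex excepted, by nucleosomes with ranks of 35.4, 71.0 and 52.3. The PI match (chr5:6827113-6827119) lay inside BCB at -1788 bp and was covered in 3 lists, the list labelled high digest dex excepted, by nucleosomes with ranks of 58.5, 3.78 and 75.8. Over the genome 53.8%, 39.8%, 65.5% and 59.3% of 19611 matches were covered, and 2, 1, 3 and 1 of the 3 here.

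CArG boxes, the sites of MADS-domain factors, were found at 1 position in the AP2 window and 2 in the AG window, and 35.1% and 45.3% of genes held such a box in windows of those lengths. The AP2 box, at -2621 bp, was covered in all 4 lists, by nucleosomes with ranks of 6.22, 77.3, 24.8 and 2.61. The AG box upstream of the gene, at -1594 bp, was covered in high digest mock alone, as was the box in the second intron. In all, 1, 1, 3 and 1 of the 3 boxes were covered, and over the genome 35.2%, 26.6%, 55.2% and 42.4% of 7741 boxes were. No CArG box in these letters occurred in the AP3 and PI windows, where 32.2% and 34.1% of equally long windows held 1 or more. The variant CCANTGT had 11 matches in the 4 windows, of which 4, 6, 7 and 6 were covered, and TTAATGG had 6, of which 2, 2, 4 and 2 were covered. Over the genome 45.9%, 36.3%, 62.9% and 52.0% of CCANTGT matches and 31.5%, 24.4%, 50.7% and 37.7% of TTAATGG matches were covered. With the list labelled high digest dex left out, 1 CCANTGG match, that of PI, was covered in every list, and 3 CCANTGT, 1 CArG and 2 TTAATGG matches were, as with it. Windows of the 4 lengths held CCANTGT in 90.6% to 97.2% of genes and TTAATGG in 65.3% to 80.6%.

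**Figure D3:**
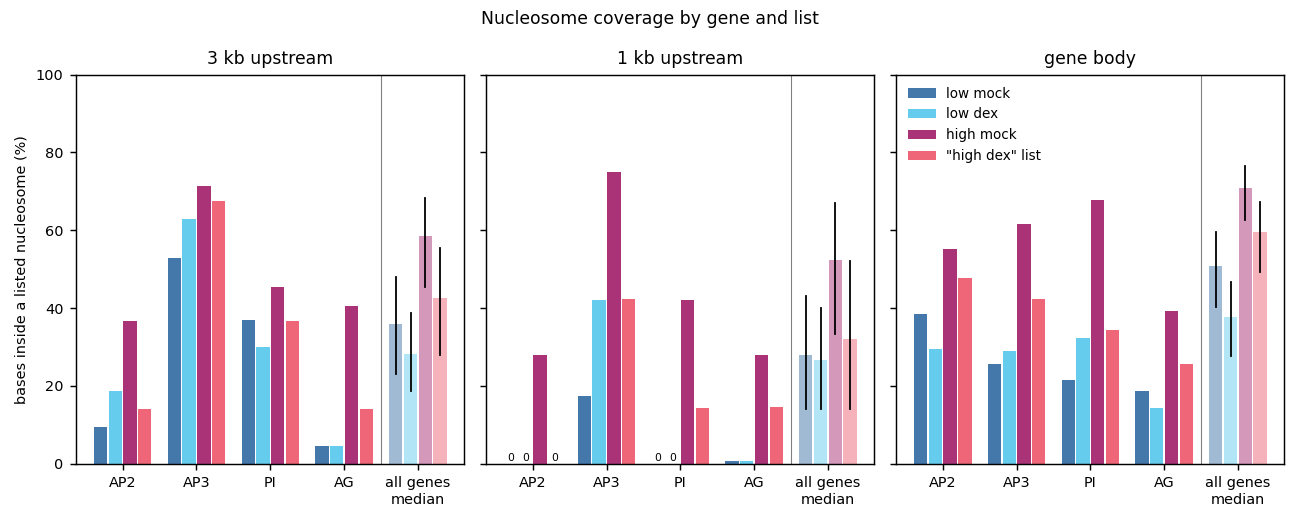
Percent of bases inside a listed nucleosome in the 3 kb upstream, the 1 kb upstream and the gene body of AP2, AP3, PI and AG, with 1 bar per list and the median of all protein-coding genes at the right of each panel, where the line spans the interquartile range. Low digest bars are at 0 for the 1 kb upstream of AP2 and PI and at 0.600 for AG, against medians of 28.0 and 26.6, and AP3 is the highest of the 4 genes in each list there.

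Set side by side, the 4 genes differed in their upstream DNA. The mean coverage of the 1 kb upstream over the 4 lists was 7.00% for AP2, 10.9% for AG, 14.1% for PI and 44.2% for AP3. Without the list labelled high digest dex the means were 9.33%, 9.73%, 14.0% and 44.8%, so that the order held. With 1 list per condition, AP2, AG and PI could not be ordered against an error. The GC content of the same kb was 26.9% for AP2, 27.5% for AG, 28.5% for PI and 34.8% for AP3, with a median of 32.6% over all genes. It followed the same order as the coverage, and its part in the coverage was not tested.

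The annotated starts of the 4 genes were covered in 0, 0, 2 and 1 cases in the 4 lists, and over all genes 32.7%, 27.3%, 40.1% and 32.8% of starts were covered. The AP2 start was in no list, like 38.8% of all starts. In low digest mock, low digest dex and high digest mock alone, the PI start was also uncovered, like 42.0% of all starts. Of the window bases, 47.7% at AP2, 15.2% at AP3, 33.0% at PI and 52.7% at AG were in no list, with a median of 24.9% over all genes. Bases covered in all 4 lists made up 11.6%, 23.8%, 15.5% and 8.44% at AP2, AP3, PI and AG, with a median of 17.5%. AP3 was thus above that median, and AP2, PI and AG were below it. Over the other 3 lists, the list labelled high digest dex left out, 51.5%, 17.8%, 35.4% and 54.6% were in no list, with a median of 27.5%, and 13.0%, 25.3%, 17.2% and 9.47% were in all 3, with a median of 19.6%.

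Most nucleosomes of the low digest mock list were found again after dex. Of the 55 nucleosomes of low digest mock at the 4 loci, 44 or 80% had at least 50% of their bases covered in low digest dex, with a Wilson 95% interval of 67.6% to 88.4% that covers counting error only. Of all nuclear nucleosomes of that list 61.5% were recovered in this way. Neighbouring nucleosomes of a locus are not independent, so the interval is no test against that share. In the other direction 45 of 56, or 80.4%, were recovered, and 80% of all. By gene, 8 of 10 nucleosomes of AP2, 16 of 19 of AP3, 12 of 13 of PI and 8 of 13 of AG in low digest mock were found in low digest dex.

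At high digest recovery from mock was below that of all nucleosomes. Of the 115 nucleosomes of high digest mock 71, or 61.7% (52.6% to 70.1%), were recovered in the list labelled high digest dex, and the share of all was 73.0%. From the list labelled high digest dex to high digest mock, 72 of 78 were recovered, 92.3%, and 92.5% of all. Neighbouring intervals of a locus are not independent, and neither share was tested against the genome.

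Between digests, 51 of 55 nucleosomes of low digest mock, or 92.7%, were found in high digest mock, and 92.7% of all were. Of the nucleosomes of high digest mock, 55 of 115 or 47.8% (38.9% to 56.9%) were found in low digest mock, against 61.8% of all. In low digest dex 47 of 56, or 83.9%, were found in the list labelled high digest dex, with 85.2% of all. Conversely 49 of 78, or 62.8% (51.7% to 72.7%), of the list labelled high digest dex were found in low digest dex, with 55.5% of all. The share from low to high digest mock thus equalled that of all nucleosomes.

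**Figure D4:**
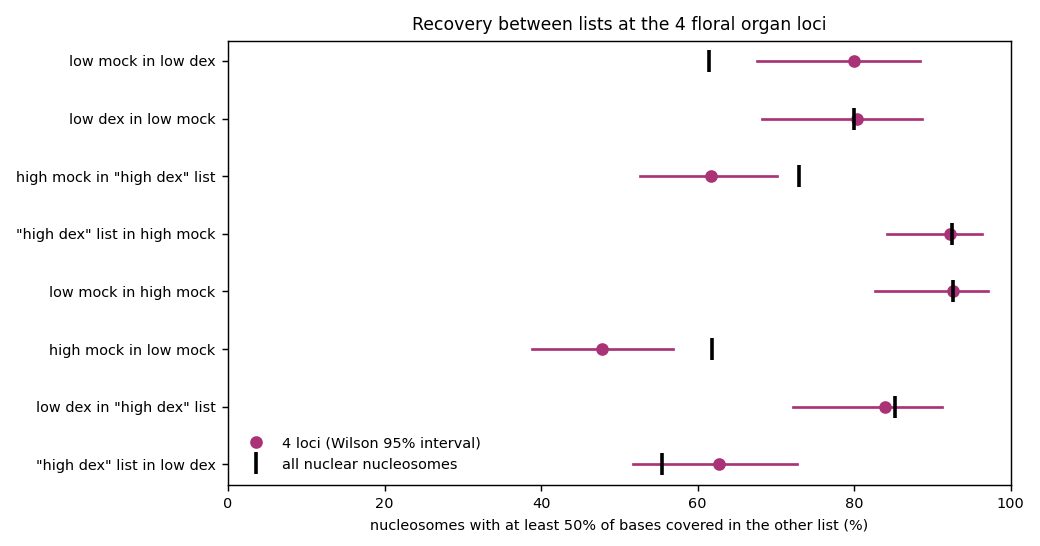
Percent of the nucleosomes of a list at the 4 loci with at least 50% of their bases covered in a second list (points, with Wilson 95% intervals for counting error) and the same percent for all nuclear nucleosomes (vertical marks), for 8 ordered pairs of lists. Point and mark lie farthest apart for low digest mock in low digest dex, for high digest mock in low digest mock and for high digest mock in the list labelled high digest dex. Neighbouring nucleosomes are not independent, so the intervals are no test against the marks.

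The share of nucleosomes found in all lists varied between the genes, and their order was not the same in each list. Of the 55, 56, 115 and 78 nucleosomes, 41, 38, 39 and 41 had at least 50% of their bases covered in all 4 lists. These were 74.5%, 67.9%, 33.9% and 52.6%, and the same shares over the genome were 55.1%, 70.5%, 35.8% and 46.4%. Without the list labelled high digest dex, 43, 41 and 43 nucleosomes of the remaining lists were shared by the 3, or 78.2%, 73.2% and 37.4%. The genome shares for these 3 lists are not given, so that these counts cannot be set against them. In low digest mock the shared nucleosomes made up 8 of 10 at AP2, 15 of 19 at AP3, 11 of 13 at PI and 7 of 13 at AG.

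High digest mock held 35 nucleosomes of its 115 at the 4 loci in no other list, or 30.4%, against 18.4% of all its nucleosomes. They numbered 7 at AP2, 7 at AP3, 10 at PI and 11 at AG. Their median rank was 13.1 and ran from 0.142 to 69.2, whereas the other 80 had a median rank of 49.8. Their median GC content was 31.4%, against 38.6% for the others. At these loci, the nucleosomes found after high digest and mock treatment alone were thus lower in signal and GC content than the others. The part of either was not tested. High digest mock was the longest of the 4 lists, and the same medians over all its nuclear nucleosomes are not given. Whether the pattern is particular to these loci was thus not tested.

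**Figure D5:**
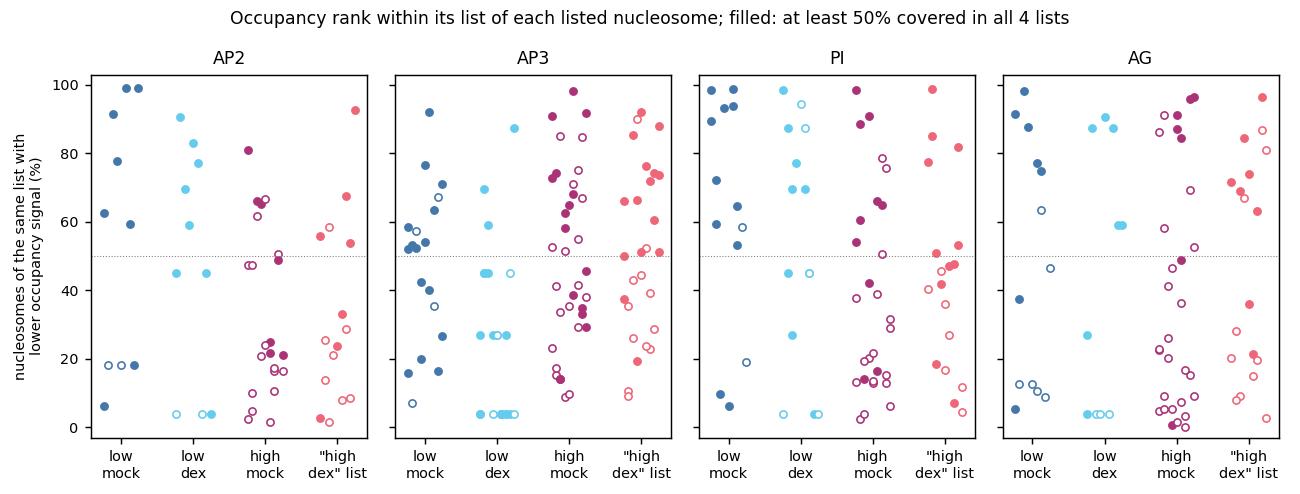
Signal rank of each listed nucleosome, as the percent of nucleosomes of the same list with a lower signal, for AP2, AP3, PI and AG by list, with filled points for nucleosomes covered over at least 50% of their bases in all 4 lists. Open points gather at low ranks in high digest mock, and low digest dex shows rows of equal ranks, the lowest at 3.78, because its signals were multiples of 8.

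Coverage after dex was compared with mock within each digest as the difference in the percent of covered bases. At low digest the AP3 window was covered over 41.1% in mock and 46.8% in dex, a difference of 5.75 percentage points, and PI and AP2 differed by 1.10 and 0.292 points. AG differed by -3.80 points, from 18.1% to 14.3%. The median over all genes was -8.06 points, with an interquartile range from -13.1 to -3.07. Thus 1 of the 4 genes was covered less after dex, where 86.4% of all genes were. AP2, AP3 and PI lay above the upper quartile of all genes and AG inside the range. In low digest mock the AP2, PI and AG windows were covered over 20.1%, 27.4% and 18.1%, against a median of 41.1%. They thus had less coverage to lose than most genes, whereas AP3 was at the median. The part of the starting coverage in the differences was not tested. The authors name low digest dex alone as pooled before nucleosomes were called. The part of this in the low digest differences was not tested.

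At high digest all 4 windows were covered less in the list labelled high digest dex than in high digest mock. The differences were -13.8 points at AP2, -14.5 at AP3, -21.2 at PI and -16.4 at AG, and the median over all genes was -12.4 points, with an interquartile range from -17.1 to -7.87. Lower coverage was seen in 96.2% of all genes, so that 4 of 4 was near the background. PI alone was outside the interquartile range. Without the list labelled high digest dex no comparison of mock and dex at high digest remained.

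Several of these differences depended on the length of the lists. When the same number of highest-signal nucleosomes was kept from each list, the high digest difference was 4.42 points at AP3, 2.03 at PI and 0.103 at AG, all above 0, and the low digest difference at AG was 3.43. The high digest difference at AP2 was then -1.75 points, and the low digest differences were 8.16 at AP2, 14.4 at AP3 and 7.30 at PI. When nucleosomes at or above the median signal of each list were kept, the low digest difference at AP3 was -7.50 points.

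Differences were also large in the upstream DNA of AP3 and in the body of PI. The 1 kb upstream of AP3 differed by 24.7 points at low digest and by -32.7 points at high digest, against all-gene medians of 0 and -14.0 points. In its 500 bp upstream the differences were 0 and -20.0 points. With signals at or above the list median alone, that kb was covered over 3.30%, 0%, 24.3% and 2.30% in the 4 lists. Under equal list sizes the shares were 17.3%, 42.0%, 24.3% and 16.3%. The PI gene body differed by 10.7 points at low digest, from 21.4% to 32.2%, and by -33.4 points at high digest, from 67.8% to 34.4%. Its first intron differed by 14.0 and -57.6 points, where introns of at least 1 kb had medians of 0 and -18.6 points. The AG second intron differed by 3.17 points at low digest and by -27.0 points at high digest, against the same medians. For AP2 and PI the 1 kb upstream was at 0% in both low digest lists.

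The list labelled high digest dex was compared with the others over the 4 windows, because of its name field. The Jaccard index, the bases covered by both lists divided by those covered by either, was 0.579 with low digest mock, 0.492 with high digest mock and 0.470 with low digest dex. Over the nuclear genome the values were 0.615, 0.579 and 0.422. The index was thus highest with low digest mock both at these loci and over the genome. It is bounded by how much each list covers. Low digest mock, high digest mock and low digest dex covered 36.1%, 54.4% and 27.9% of the nuclear genome, against 42.7% for this list. The order of the values therefore cannot say which list is most alike, and which libraries this list holds was not tested.

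The members were also set beside 30 other genes of the floral organ pathway, among them the regulators LFY, UFO and WUS, the MADS-domain partners SEP1 to SEP4, and the AP2 relatives TOE1, SMZ and SNZ. Their 1 kb upstream had median coverages of 14.0%, 14.0%, 45.0% and 21.4%, against 28.0%, 26.6%, 52.3% and 32.0% over all genes, and 19, 24, 19 and 19 of the 30 were below. The 3 highest means over the lists were 55.9% for TOE1, an AP2 relative annotated as RAP2.7, 48.7% for ULT1, a SAND-domain protein that promotes AG expression, and 46.6% for RBE, a zinc finger factor of petal development. The 3 lowest were 0% for SEU, a partner of the AG repressor LUG, 9.85% for SMZ, an AP2 relative, and 10.1% for SEP4. The 44.2% of AP3 was below these 3 highest, and the 7.00% of AP2 lay between SEU and SMZ. Without the list labelled high digest dex the highest were TOE1 at 55.9%, RBE at 50% and CLF, a Polycomb methyltransferase that represses AG, at 47.2%, and the lowest were SEU at 0%, SEP4 at 8.77% and SMZ at 13.1%, next to 44.8% for AP3 and 9.33% for AP2. The whole windows of 20 of the 30 genes were covered less in dex than in mock at low digest, 9 were covered more and 1 equally, and all 30 were covered less at high digest, next to 86.4% and 96.2% of all genes.

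The start regions of the 4 genes were not close to each other, and pairs of members lay on both sides of the median likeness over all genes. Likeness was measured as the Jaccard index of covered steps of 10 bp from 1 kb before to 1 kb after the start, over 804 points in the 4 lists. The most similar pair of members was AP3 and PI, at 0.285, followed by AP2 and AP3 at 0.272 and AP2 and PI at 0.229, while AG had 0.135 with AP2, 0.124 with PI and 0.111 with AP3. Over all genes the medians were 0.225 for AP2, 0.336 for AP3, 0.251 for PI and 0.110 for AG. AP2 and PI were thus about at the AP2 median and below the PI median. Over the 603 points without the list labelled high digest dex, AP3 and PI had 0.330, AP2 and AP3 0.248 and AP2 and PI 0.197, and AG had 0.102 with AP2, 0.112 with PI and 0.0948 with AP3. The most similar genes were AT5G05040 at 0.537 and GPT1 at 0.536 for AP2, AT4G03630 at 0.548 and AT1G49640 at 0.543 for AP3, BSMT1 at 0.502 and AT5G15780 at 0.451 for PI, and GATA3 at 0.330 and WSIP2 at 0.329 for AG. Without that list AT5G05040, BSMT1 and AT1G49640 were still among the 2 most similar genes of AP2, PI and AP3, and the others named gave way to AT1G69480 for AP2, KNATM for AP3, DOF4.4 for PI and AT4G02910 and MYB50 for AG. With 1 list per condition these indices are a description.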

How the data were processed

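The authors mapped paired reads to TAIR10 with Bowtie 1.2.2 (Picard 2.9.4 is also named in the submitters' processing notes) and kept uniquely placed pairs. They called nucleosomes with DANPOS at a significance cutoff, pooling the low digest dex replicates beforehand. A stretch without listed nucleosomes thus held no call past that cutoff, which is not the same as no nucleosome. How replicates were combined for the other deposited lists is not stated. The deposited values used are interval positions and the occupancy signal at each summit, whose scaling between lists is not stated. No column of fold changes or p-values was present.

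From these lists, coverage, positions, signal ranks and recovery (at least 50% of bases) were computed with Python 3.11.15, NumPy 2.4.6 and Matplotlib 3.10.9, and starts, taken as zero-based in the lists, are printed counting from 1. Genes, introns and miR172 coordinates came from the RefSeq annotation of TAIR10.1, whose nuclear sequence is that of TAIR10. The sequences printed were read from that reference. Background values are medians over 27438 protein-coding genes with a complete window. Motifs were searched on both strands, and coverage was read at the centre base. The script was checked on simulated intervals. Wilson 95% intervals cover counting error only.

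The members and the pathway list were chosen with earlier results of these data known. Nucleosomes are named where they cover a gene start, a CCANTGG or CArG match or the miR172 site, lie in the AG second intron, or have the highest rank of a locus in a list. Others named, in the upstream stretches and the PI exons and introns, were chosen after their values were seen. Pathway genes named are the 3 highest and 3 lowest in mean upstream coverage, and likeness names the 2 most similar genes for each member. Alternatives were equal list sizes, higher signals only, other windows, a central 80 bp and other overlaps. Leaving out the list labelled high digest dex was added after the data were seen. No test was run, since each condition has 1 list.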

Additional observations from a re-analysis of the deposited data

Results flagged for a closer look

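At several places the coverage in dex minus that in mock had opposite directions in the 2 digests. The difference between digests was not tested, since each value compares 1 list with 1 list, and the high digest values rest on the list labelled high digest dex. For the whole window, AP2 differed by 0.292 percentage points at low digest and by -13.8 at high digest. AP3 differed by 5.75 and -14.5 points, and PI by 1.10 and -21.2 points. In the 1 kb upstream of AP3 the values were 24.7 and -32.7 points, and in its gene body 3.22 and -19.4 points. The PI gene body differed by 10.7 and -33.4 points. For the AG second intron the values were 3.17 and -27.0 points.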

How the results depend on the processing

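No paired analysis was possible because each condition is represented by 1 pooled list, and for the same reason no replicate could be left out. Of 194 values recomputed under another filter, window or overlap, 115 stayed within the limits set for them, 73 moved and 6 changed direction. Keeping equal numbers of the highest signals from each list turned the dex minus mock difference at high digest to 4.42 points at AP3, 2.03 at PI, 0.103 at AG and 0.333 in the AG second intron, and the AG difference at low digest to 3.43 points. Keeping signals at or above the list median turned the low digest AP3 difference to -7.50 points. Without the list labelled high digest dex, an alternative added after the data were seen, 58 of 59 values stayed within 1.5 times, the exception being CCANTGG matches covered in every list, at 1 in place of 0.

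Values follow in the list order of the report. Under equal list sizes high digest mock had 43 nucleosomes at the 4 loci and the list labelled high digest dex had 47, and under higher signals 33, 29, 43 and 35. Coverage of the 4 loci together was 25.5%, 25.8%, 51.4% and 34.9% in the full lists. It was 18.0%, 20.0% and 21.0% in low digest mock, high digest mock and the list labelled high digest dex under equal sizes, 15.2%, 13.8%, 20.0% and 16.0% under higher signals, and 14.7%, 15.0%, 30.7% and 20.7% with the central 80 bp. Coverage of the AG second intron in high digest mock was 10.5% under both signal filters and 24.2% with the central 80 bp. The upstream median of the pathway genes was 14.0% in high digest mock under both filters, and 3.40% and 0.400% in the list labelled high digest dex. Of the CCANTGG matches, 0 were covered in 3 or 4 lists under higher signals, and of the CArG boxes 0 under either filter.

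Recovery at an overlap of 80% was 47.3% and 51.8% between low digest mock and low digest dex, 44.3% and 62.8% between high digest mock and the list labelled high digest dex, 67.3% and 32.2% between low and high digest mock, and 60.7% and 42.3% between low digest dex and the list labelled high digest dex. With an overlap of 1 bp, 71.3% of high digest mock and 92.9% of low digest dex were recovered in the list labelled high digest dex, and 100% of that list in high digest mock. In the order of the pairs and directions above, equal sizes gave 92.3% and 67.9%, then 63.8% for the list labelled high digest dex in high digest mock, then 69.2% and 65.1%, then 66.1% and 78.7%. Higher signals gave 74.3% for the list labelled high digest dex in high digest mock, 72.7% and 60.5% between the mock lists, and 55.2% and 48.6% for the last pair. All these shares are for nucleosomes at the floral organ loci alone. The shares of all nucleosomes under these settings are not given, so whether the shifts are particular to these loci was not tested. The cause of these shifts was not tested, beyond the smaller number of nucleosomes kept.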
